A study of Homo sapiens with 15 samples.

Results

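The genes described here are 110 of the 16604 genes in an expression table of 5 human ovarian cancer cell lines. They are the genes that GENCODE v29, a human gene annotation, places on chromosome 21 and whose mean across all 15 samples reached at least 1. The unit is log2 RPKM, the base-2 logarithm of read counts corrected for gene length and sequencing depth, so a step of 1 is a doubling and levels can be compared between genes. Chromosome 21 holds 164 rows of the table, of which 45 lay below that limit. The rule left out another 9 rows by name, namely ATP5PF, ATP5PO, COL18A1, COL6A1, COL6A2, ITGB2, LSS, MX1 and NDUFV3. The members just inside the limit were MCM3AP-AS1 at a mean of 1.06, the miRNA hairpin ENSG00000264063 at 1.07 and TIAM1-AS1 at 1.09, and the rows just outside it were MYL6P2 at 0.97, TMPRSS3 at 0.87 and HUNK at 0.71. In 99 of the members the mean was at least 1 in every line, and in 11 it was below 1 in some line. The chromosome was selected on its shift in the line Ov4Carbo7, so every count, median and difference for that line is a description with no test.

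OVCAR4, labelled Ovcar4Parental, is an established cell line from a high-grade serous ovarian cancer and is described as platinum sensitive. Ov4Cis was grown from it in rising concentrations of cisplatin and is described as cisplatin resistant, and Ov4Carbo was grown likewise in carboplatin and is described as carboplatin resistant. Ov4Carbo4 and Ov4Carbo7 were each grown from a single Ov4Carbo cell and are also described as carboplatin resistant, so each represents 1 clone. Every line was kept in DMEM with serum, has 3 replicates described as biological, and was profiled from polyA-captured RNA. The labels do not say whether drug was present when RNA was taken. All comparisons with the parental line share its 3 samples. All 7 serous ovarian markers checked are in the table, and they did not behave alike. The Müllerian lineage factors PAX8, between 5.66 and 6.87 in all samples, and SOX17, between 6.55 and 8.12, were expressed throughout, and WT1 was near absent throughout, between -6.37 and -0.98. The surface antigen MUC16 (CA125) went from a mean of 4.596 in the parental line to -0.21 in Ov4Carbo7 and -1.73 in Ov4Cis, the keratin KRT7 from 8.28 to 5.48 and -0.57, EPCAM from 5.98 to 3.01 and 1.17, and mesothelin (MSLN) from 1.89 to 1.37 and -2.29.

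Chromosome 21 is the smallest human autosome and the one present in an extra copy in Down syndrome. Its best-known genes act in separate pathways: DYRK1A is a kinase and RCAN1 an inhibitor of the phosphatase calcineurin, RUNX1, ETS2 and ERG are transcription factors, HMGN1 binds nucleosomes, SOD1 removes superoxide, GART makes purines, and a cluster of 4 genes codes for interferon and interleukin-10 family receptor chains. What these genes share is their place on a chromosome rather than a pathway. DNA copy number was not analysed here.

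In Ov4Carbo7 the chromosome 21 genes were lower as a group, in each of its 3 samples, and in the other resistant lines their medians stayed close to the parental level. The median of the members' differences from the parental mean was -0.42, -0.33 and -0.30 in the Ov4Carbo7 samples (mean -0.35 ± 0.06, SD, n = 3), and 86, 81 and 79 of the 110 members lay below the parental mean. In the Ov4Cis samples this median was 0.06, 0.07 and 0.09, in Ov4Carbo 0.03, 0.02 and -0.01, and in Ov4Carbo4 0.03, 0.05 and 0.08. Each parental sample set against the other parental samples gave a median between -0.01 and 0.03. No Ov4Carbo7 sample came near the range of the other 12. The log2 of the summed RPKM of the 7 serous markers lay between 8.005 and 8.08 in Ov4Carbo7, against 9.08 to 9.34 in the parental line. It was 7.76 to 8.42 in Ov4Cis, 8.24 to 8.32 in Ov4Carbo and 8.52 to 8.57 in Ov4Carbo4. Such a sum follows the most abundant markers, and the single markers went different ways in Ov4Carbo7. The means of KRT7, MUC16, EPCAM and MSLN were below the parental ones, and SOX17 was at 6.65 against 6.91. PAX8 was higher, at 6.74 against 6.01, as was the near absent WT1, at -4.23 against -5.07. Of the endothelial markers, CDH5 was at a mean of 2.46 in the parental line, 3.08 in Ov4Carbo7, 2.15 in Ov4Carbo, 4.42 in Ov4Carbo4 and 5.13 in Ov4Cis, and VWF was between -2.67 and 0.28. The hepatocyte marker APOA1 was between -0.10 and 2.14 over all samples, and PTPRC, CD3E, CD68, PECAM1 and ALB were not analysed here. The part of these marker differences in the results was not tested. In bulk RNA, fewer cells with a transcript and less of it per cell cannot be told apart.

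**Figure D1:**
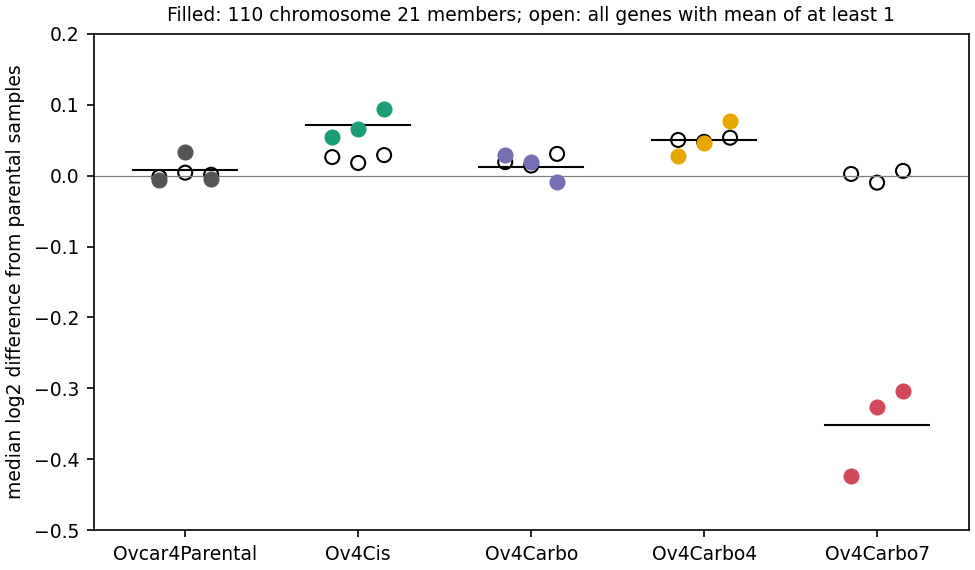
Median log2 difference from the parental samples, in each of the 15 samples by line: filled points are the 110 chromosome 21 members, open points all 12037 genes with a mean of at least 1, and bars the line means of the filled points. The Ov4Carbo7 points lie between -0.42 and -0.30 and all other filled points between -0.01 and 0.09.

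Across the members, the median difference of Ov4Carbo7 from the parental line was -0.35, or 21.8% lower, with quartiles at -0.66 and 0.00. Over the 12037 genes of the table with a mean of at least 1 the median was 0.00 and the quartiles -0.31 and 0.31. At an adjusted p under 0.05 in limma, 52 members were lower and 9 higher, against a background of 20.3% lower and 20.3% higher among the 12037 genes. Steps of at least a doubling were few: 6 members were lower and 3 higher by 1 or more, or 9 in all, against a background of 9.4%. The median of the 52 lower members was -0.66. The share of members below the parental level was 74.5%, against 50.1% in the background. With a term for the 2 number series of the sample titles, described below, 28 members were lower and 3 higher, and the median was -0.37. The share of all genes called with that term was not computed, so these counts have no background beside them.

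The shift was of like size against the other carboplatin-selected lines. Against Ov4Carbo, the population that Ov4Carbo7 came from, the members' median was -0.36, with 49 members lower and 9 higher against a background of 18.7% and 16.9%. By at least a doubling, 9 members were lower and 3 higher, against a background of 6.98% in either direction. With only these 2 lines in the fit, 30 were lower and 5 higher, and with the title series term 32 were lower and 0 higher. Background shares were not computed for these fits. Against the sister clone Ov4Carbo4 the median was -0.40, with 59 lower and 9 higher against 27.6% and 23.4%. By at least a doubling, 14 were lower and 6 higher, against 13.6%. These comparisons share the Ov4Carbo7 samples with the first.

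**Figure D2:**
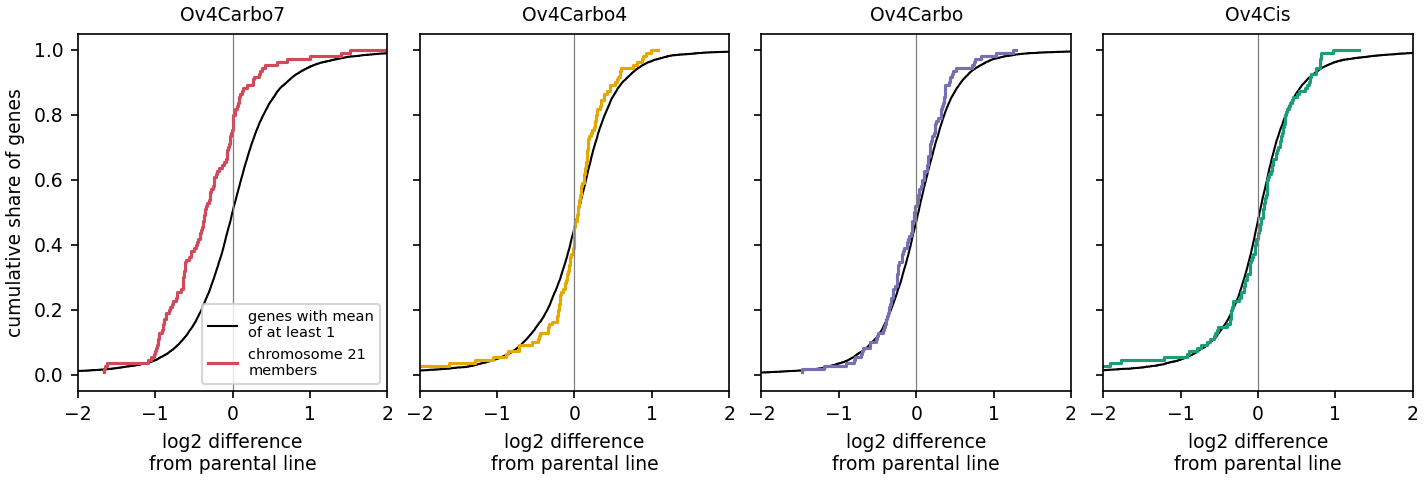
Cumulative share of genes (vertical axis) against the log2 difference from the parental line (horizontal axis, drawn from -2 to 2) in each derived line, for the 110 chromosome 21 members (coloured) and the 12037 genes with a mean of at least 1 (black). The coloured curve stands left of the black one through most of its length in Ov4Carbo7, with medians of -0.35 and 0.00, and near it in the other 3 panels.

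In gene order, the displacement in Ov4Carbo7 was spread along most of the chromosome. In 6 consecutive blocks of 18 or 19 members the median differences were -0.46 (MIR3648-2 to BACH1), -0.39 (UBE3AP2 to GART), -0.25 (SON to HLCS), -0.34 (PIGP to WDR4), -0.35 (PKNOX1 to UBE2G2) and -0.36 (SUMO3 to PRMT2). Between 7 and 10 members were called lower in each block and between 0 and 3 higher. No block median stood at or above the parental level, but single samples did not separate in every block. In the block SUMO3 to PRMT2, Ov4Carbo7 replicate 2 had a median of -0.21. Parental replicate 1, set against the other parental samples, was at -0.24 there and Ov4Carbo replicate 3 at -0.22. In the block SON to HLCS, Ov4Carbo7 replicate 3 was at -0.17, beside -0.18 in Ov4Carbo replicate 2. A running median over 11 neighbouring members was below 0 in 93 of 100 positions. It was lowest at -0.64 around PPIAP22, within the block MIR3648-2 to BACH1, and highest at 0.06 around SSR4P1. At the consecutive positions from LRRC3 to LINC00205 it stayed close to the parental level, between -0.0044 and 0.0643. The other lines stayed within -0.25 and 0.36 in the same running median, with the highest value in Ov4Cis, also around SSR4P1.

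Single members broke the run at many places. The longest unbroken stretches of members below the parental level held 9 genes each: MRPL39 to CCT8 with a median of -0.47, SCAF4 to IFNAR2 with -0.39 and CBS to TRAPPC10 with -0.40. The last 7 members toward the long-arm end, MCM3AP-AS1 to PRMT2, had a median of -0.64. Just before them lay the widest gap, POFUT2, LINC00205, SLC19A1 and SPATC1L, all at or above the parental level at 0.06, 0.12, 0.08 and 1.40. ITGB2-AS1, LINC01547 and SLX9 formed a gap of 3 at 0.57, 0.27 and 0.04. Of the other gaps, 17 held 1 member and 2 held 2, and the members in them were scattered from MIR3648-2 to IMMTP1.

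**Figure D3:**
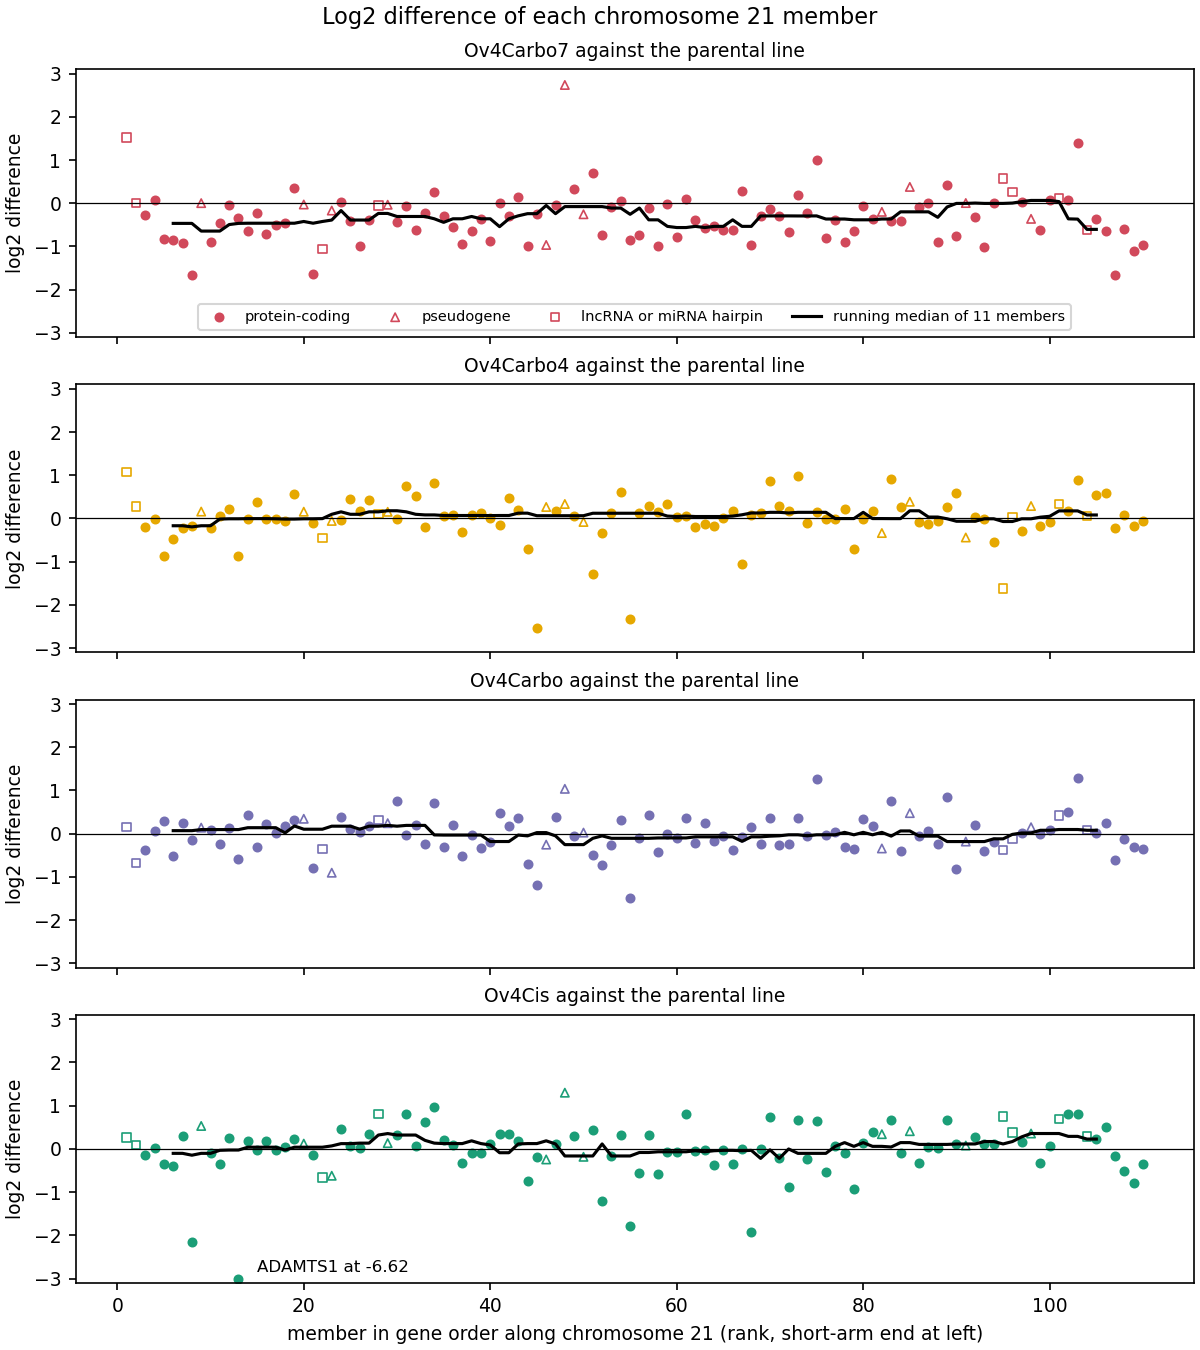
Log2 difference from the parental line (vertical axis) of each of the 110 members in gene order along chromosome 21 (horizontal axis, rank), 1 panel per derived line, with the running median of 11 members as a black line. The black line in Ov4Carbo7 lies below 0 in 93 of 100 positions, and ADAMTS1 in Ov4Cis, at -6.62, is drawn at the edge of its panel.

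The members are taken next by role, in lists described by their counts and medians. For Ov4Carbo7, 47.3% of all members were lower and 8.18% higher, beside the 20.3% and 20.3% of the background. For the other lines the background was 20.6% higher and 17.5% lower in Ov4Carbo4, 17.0% and 14.8% in Ov4Carbo, and 17.4% and 15.6% in Ov4Cis. The lists hold 4 to 23 members each, and none was tested against the rest of the chromosome.

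Of the 7 signalling genes, 6 were lower in Ov4Carbo7 and 0 higher, with a median of -0.91. The list had 2 higher and 1 lower member in Ov4Carbo4, 0 and 2 in Ov4Carbo, and 2 and 2 in Ov4Cis. TIAM1, an exchange factor that activates the small GTPase Rac, read 4.18, 4.13 and 3.94 in the parental samples and 2.01, 2.57 and 2.79 in Ov4Carbo7. All 3 Ov4Carbo7 values lay below those of every other line, and the difference from the parental line was -1.63 (SE 0.17). In Ov4Carbo TIAM1 read 3.23, 3.40 and 3.25 and was also lower, by limma, at -0.79 (adjusted p 0.00428, 3 of 3 samples), whereas Ov4Carbo4 at 3.88, 3.96 and 4.12 and Ov4Cis at 4.13, 3.74 and 3.96 overlapped the parental values. BTG3, an antiproliferative protein of the BTG/TOB family, read 4.85, 4.58 and 4.61 in the parental line and 3.85, 3.87 and 3.58 in Ov4Carbo7, a difference of -0.91 (SE 0.11). DYRK1A read 4.64, 4.57 and 4.43 in the parental line and 3.96, 3.72 and 3.62 in Ov4Carbo7, a difference of -0.78 (SE 0.12). Its values in the other lines, 4.42, 4.52 and 4.45 in Ov4Cis, 4.31, 4.66 and 4.38 in Ov4Carbo and 4.49, 4.64 and 4.64 in Ov4Carbo4, overlapped the parental ones and stood above all of Ov4Carbo7. With the title series term the DYRK1A difference was -0.57 and missed the threshold. RIPK4, a kinase of epithelial differentiation, differed by -0.97 in Ov4Carbo7, a call not kept without parental replicate 3 (-0.72) or with only the 2 lines in the fit, and the scaffold ITSN1, of endocytosis, by -0.29. PDE9A, which degrades cyclic GMP, was the member of the list that was not lower, at 0.18.

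Of 21 members with roles in transcription and chromatin, 12 were lower in Ov4Carbo7, 2 higher and 7 neither, with a median of -0.38. HMGN1, a nucleosome-binding protein, read 7.14, 7.02 and 6.88 in the parental samples and 6.56, 6.31 and 6.33 in Ov4Carbo7, below every sample of the other lines, and differed by -0.62 (SE 0.13). With the title series term its difference was -0.27 and missed the threshold. MIS18A, needed to load the centromeric histone, differed by -0.98, and DONSON, of the replication fork, by -0.88. The arginine methyltransferase PRMT2 differed by -0.96, the biotin ligase HLCS by -0.72 and the bromodomain protein BRWD1 by -0.54. GABPA, an ETS-family factor, differed by -0.47. The members called higher were PKNOX1, a homeodomain partner of HOX proteins, at 0.99, and BACH1, a haem-regulated repressor, at 0.35. The transcription factors RUNX1, at -0.24, ETS2, at -0.38, and ERG, at 0.09, were not called, whereas the transcription factor SIM2 was lower at -0.86. In the other lines the same list gave 3 higher and 2 lower in Ov4Carbo4, 4 and 4 in Ov4Carbo, and 3 and 4 in Ov4Cis.

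RNA processing and ribosome assembly showed 9 of 13 members lower in Ov4Carbo7 and 0 higher, with a median of -0.39. RRP1B, a nucleolar protein of ribosome maturation, read 5.18, 5.60 and 5.75 in the parental samples and 4.38, 4.68 and 4.77 in Ov4Carbo7, with no overlap, and differed by -0.90 (SE 0.15). The mitochondrial ribosomal protein MRPL39 differed by -0.89, while MRPS6, another mitochondrial ribosomal protein, stood at 0.13 and was not called. ADARB1, an adenosine-to-inosine RNA editing enzyme, differed by -0.62 and SON, a splicing cofactor, by -0.36, which missed the threshold without parental replicate 2 (-0.32) and without Ov4Carbo7 replicate 1 (-0.29). U2AF1, the small subunit of the factor that recognises the 3′ splice site, stood at -0.38 and was not called. U2AF1 and CBS have near-identical copies on this chromosome in the newer genome assembly. The submitters' notes name the older hg19/GRCh37 without its role. Whether the copies affected the counts of these genes is therefore unknown, and the counts are uncertain. The list had 3 higher and 0 lower members in Ov4Carbo4, 0 and 1 in Ov4Carbo, and 1 and 0 in Ov4Cis.

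In protein folding and ubiquitin handling, 8 of 12 members were lower in Ov4Carbo7 and 1 higher, with a median of -0.48. SUMO3, a small ubiquitin-like modifier, read 6.12, 6.32 and 6.33 in the parental line and 5.11, 5.35 and 5.29 in Ov4Carbo7, a difference of -1.01 (SE 0.11) with no overlap. TTC3, a ubiquitin ligase, differed by -0.999, and the deubiquitinases USP25 and USP16 by -0.82 and -0.49. USP25 was lower in Ov4Carbo4 too, at -0.88 (adjusted p 0.000527 by limma, 3 of 3 samples), and with the title series term these USP25 differences were -0.36 in Ov4Carbo7 and -0.42 in Ov4Carbo4, both short of the threshold. The chaperonin subunit CCT8 differed by -0.46, the proteasome assembly factor PSMG1 by -0.56 and the tail-anchored protein receptor GET1 by -0.61. CSTB, an inhibitor of cathepsins, stood at -0.07 and was not called. BACE2, a membrane protease, was the member higher, at 0.28. In Ov4Carbo4 the list gave 1 higher and 2 lower, in Ov4Carbo 0 and 3, and in Ov4Cis 1 and 2.

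All 14 members of the membrane traffic, cytoskeleton and centrosome list lay below the parental level in Ov4Carbo7, 8 of them lower at the threshold, with a median of -0.43. Besides TIAM1 and ITSN1 these included DIP2A at -1.09, the membrane protein TMEM50B at -0.95, the cilium protein CFAP410 at -0.90, DOP1B at -0.73, the pericentriolar scaffold PCNT at -0.60 and the trafficking-complex subunit TRAPPC10 at -0.42. PCNT read 4.49, 4.89 and 4.87 in the parental samples and 4.01, 4.08 and 4.34 in Ov4Carbo7, with no overlap. Nearest to the parental level were PTTG1IP at 0.00 and VPS26C at -0.02. The other lines had 4 higher and 1 lower (Ov4Carbo4), 3 and 4 (Ov4Carbo) and 4 and 4 (Ov4Cis).

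Metabolic and redox genes had a median at the parental level in Ov4Carbo7, 0.00, with 5 of 13 members lower and 2 higher. GART, which carries 3 steps of purine synthesis, was among the lower ones: it read 6.31, 6.46 and 6.54 in the parental samples and 5.64, 5.85 and 5.89 in Ov4Carbo7, with no overlap, and differed by -0.64 (SE 0.10). Besides HLCS, lower too were PDXK, which makes the active form of vitamin B6, at -0.65, the sugar-phosphate exchanger SLC37A1 at -0.67 and the lipid acyltransferase AGPAT3 at -0.40. SOD1, the cytosolic superoxide dismutase, read 7.11, 7.04 and 6.89 in the parental samples and 7.16, 6.96 and 7.01 in Ov4Carbo7, ranges that overlapped, with a difference of 0.03. PFKL, the liver-type phosphofructokinase, stood at 0.01, and CBS, which makes cystathionine, at -0.81 without passing the threshold. The neighbouring carbonyl reductases CBR1, at 0.34, and CBR3, at 0.70, were the members higher. The CBR3 call in Ov4Carbo7 was not kept without any 1 parental or any 1 Ov4Carbo7 replicate (0.61 to 0.80) and became -0.11 with the title series term. AGPAT3 likewise missed the threshold without parental replicate 1, 2 or 3 (-0.42 to -0.39), without Ov4Carbo7 replicate 1 (-0.39) and without Ov4Carbo7 replicate 3 (-0.29), among others.

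Of the 4 receptor chains, which pair to bind type I interferons, interferon gamma and interleukin-10 family cytokines, IFNGR2 was called lower in Ov4Carbo7. It read 4.06, 3.85 and 3.86 in the parental samples and 3.45, 3.38 and 3.32 in Ov4Carbo7, with no overlap, and differed by -0.54 (SE 0.10). IFNAR1 at -0.31, IFNAR2 at -0.24 and IL10RB at 0.27 were not called, although the 4 genes are immediate neighbours. IL10RB was higher by limma in the other 3 lines, at 0.81 in Ov4Carbo4 (adjusted p 0.00048), 0.71 in Ov4Carbo (adjusted p 0.00175) and 0.97 in Ov4Cis (adjusted p 0.00012), in 3 of 3 samples each. Its parental values were 1.71, 1.44 and 1.27, against 2.41, 2.39 and 2.06 in Ov4Carbo4, 2.09, 2.30 and 2.16 in Ov4Carbo and 2.42, 2.44 and 2.47 in Ov4Cis. IFNAR2 was higher in Ov4Cis at 0.61 (adjusted p 0.000609). Among the surface proteins and proteases, 1 of 6 was lower in Ov4Carbo7 and 1 higher. CXADR, an adhesion protein and adenovirus receptor, was the lower one at -0.86, and the amyloid precursor APP, the most abundant of them at a mean of 8.40 over all samples, stood at -0.03.

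Over the textbook genes of the chromosome, a list of 23 members that draws on several of these roles, 10 were lower in Ov4Carbo7, 1 higher and 12 neither, with a median of -0.38. In Ov4Carbo4 the list gave 3 higher and 4 lower, in Ov4Carbo 4 and 5, and in Ov4Cis 4 and 3, with medians between -0.03 and 0.00. The 26 members on no list, mostly pseudogenes, non-coding RNAs and proteins of little known function, had 6 lower and 4 higher in Ov4Carbo7 and a median of -0.01. The lowest differences of all in Ov4Carbo7 came from this remainder and from TIAM1. C21orf91 read 2.77, 2.86 and 2.66 in the parental samples and 1.10, 1.17 and 1.05 in Ov4Carbo7, a difference of -1.66 (SE 0.14). C21orf58 read 3.96, 3.81 and 3.74 and 2.14, 2.22 and 2.21, a difference of -1.65 (SE 0.17). Neither gene overlapped between the lines, and C21orf91 was lower still in Ov4Cis.

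**Figure D4:**
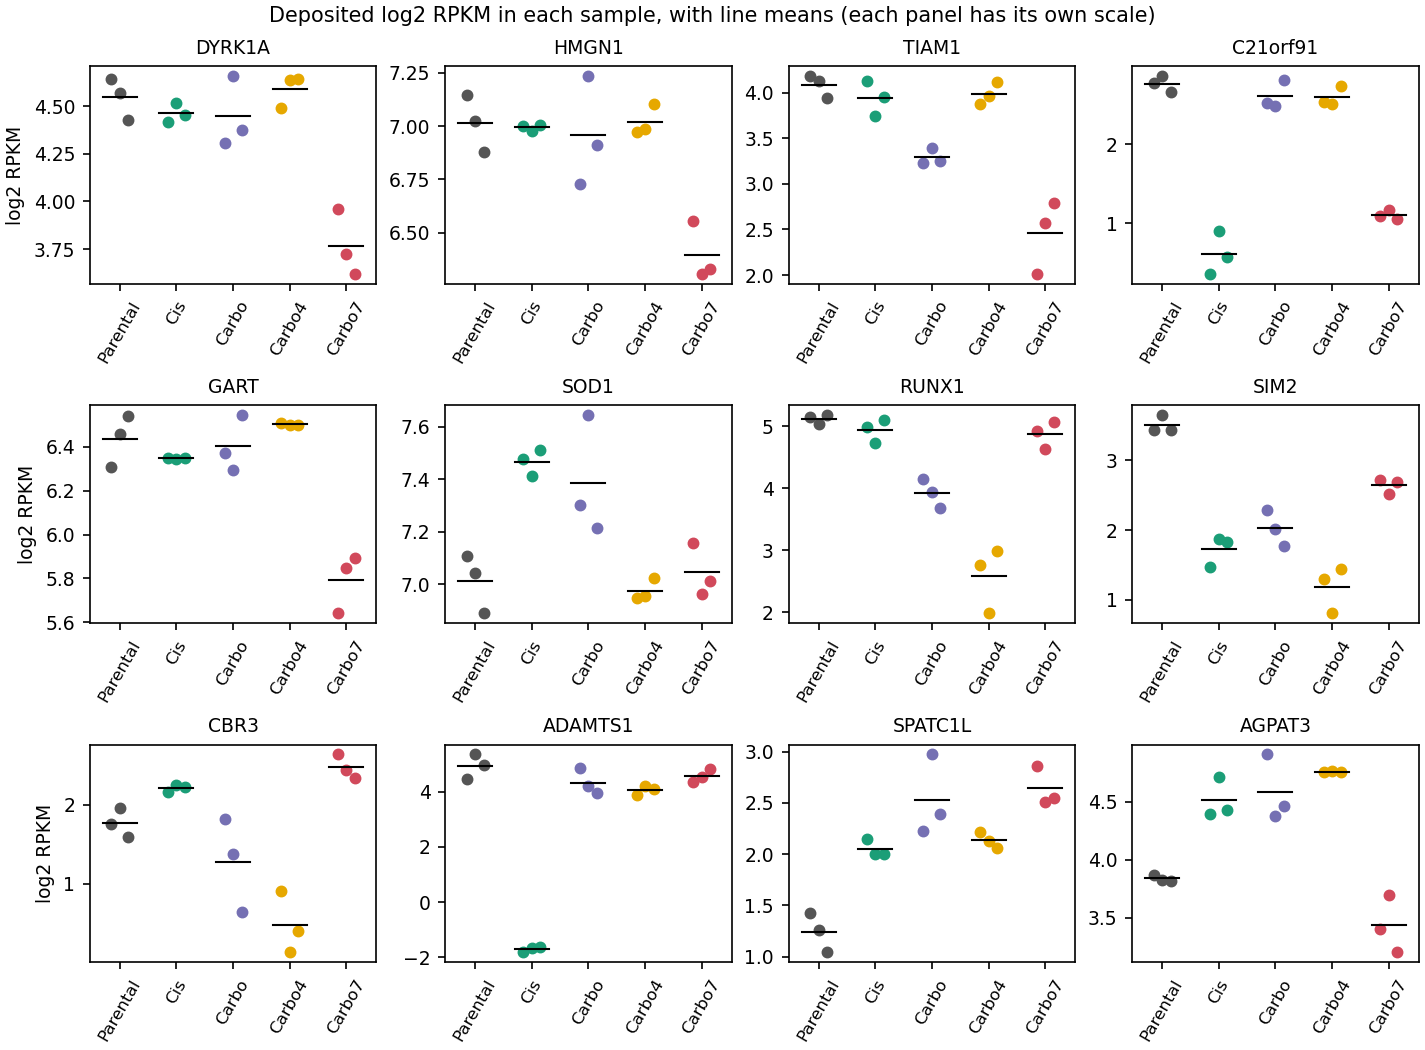
Deposited log2 RPKM of 12 members in each of the 15 samples, with bars at the line means; each panel has its own vertical scale and the columns are the 5 lines. DYRK1A, HMGN1, TIAM1 and GART are lowest in all 3 Ov4Carbo7 samples, while SOD1 and RUNX1 in Ov4Carbo7 overlap the parental values and ADAMTS1 lies below 0 in the Ov4Cis samples.

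The median shift in Ov4Carbo7 was larger among protein-coding genes than among other kinds of transcript. The 91 protein-coding members had a median of -0.39 in Ov4Carbo7, with 49 lower and 7 higher, whereas the 11 pseudogenes had a median of -0.04, with 1 lower and 1 higher. The 6 long non-coding RNAs had a median of 0.03, with 2 lower, and the 2 miRNA hairpins 0.77, with 1 higher. That hairpin, MIR3648-2, read 1.09, 2.53 and 1.86 in the parental samples and 3.14, 3.15 and 3.75 in Ov4Carbo7, and its difference of 1.52 had a wide SE of 0.43. It missed the threshold without parental replicate 1 (1.15) and without Ov4Carbo7 replicate 3 (1.32). Hairpin loci counted in polyA-captured libraries do not measure the mature miRNA. By mean level, the 37 lowest members had a median of -0.22, the 36 in the middle -0.51 and the 37 highest -0.33. These classes were compared after their values were seen, and their differences were not tested.

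The pseudogenes are copies of genes that sit on other chromosomes, and some of them differed by nearly as much as the parent gene did. EZH2P1 differed by -0.97 in Ov4Carbo7 and its parent EZH2, a histone methyltransferase gene on chromosome 7, by -0.99. RIMKLBP1, the member with the largest positive difference, differed by 2.74 and its parent RIMKLB, on chromosome 12, by 2.60. FBXW11P1 stood at -0.17 beside -0.19 for FBXW11 on chromosome 5. SSR4P1 went the other way from its parent, -0.36 against 0.40 for SSR4 on the X chromosome, and H2AZP1 at 0.38 stood above H2AZ1 at -0.13. Across the 11 pairs the medians were -0.04 for the pseudogenes and -0.13 for the parents. Reads of a pseudogene and of its parent can be hard to assign, so the pseudogenes' values are uncertain as measures of chromosome 21, and the part of shared reads was not tested.

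**Figure D5:**
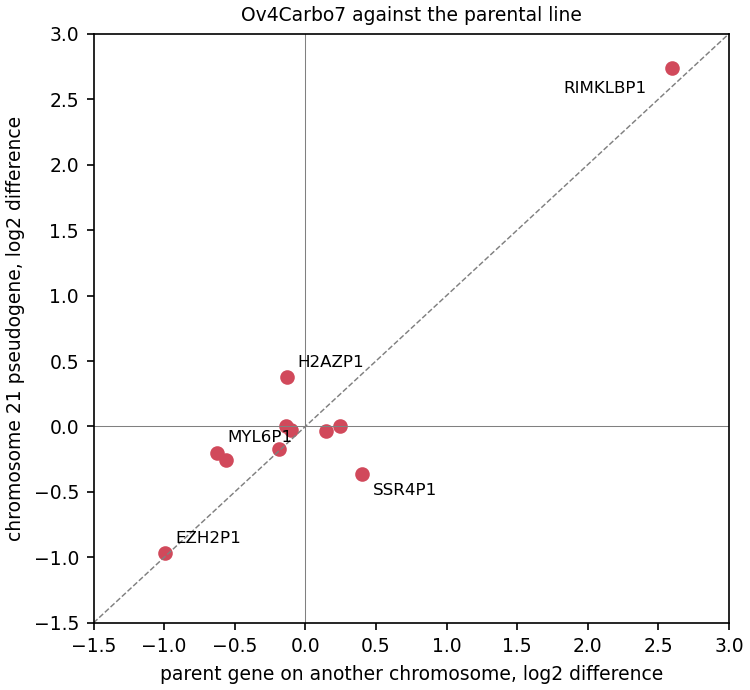
Log2 difference of Ov4Carbo7 from the parental line for the 11 chromosome 21 pseudogenes (vertical axis) against their parent genes on other chromosomes (horizontal axis), with the line of equal values dashed. RIMKLBP1, at 2.74 beside 2.60, and EZH2P1, at -0.97 beside -0.99, lie close to the dashed line, and SSR4P1, at -0.36 beside 0.40, lies off it.

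Some members are head-to-head neighbours whose start regions overlap, which allows a comparison over a short stretch of the chromosome. RefSeq windows from 250 bases before to 50 after the gene start (GRCh38.p14) were found for 78 of the 110 members, and 6 pairs of members on opposite strands had overlapping windows. The windows of 3 of these genes are printed from 5′ to 3′ on the gene's own strand, with the bases shared with the partner's window in capitals: GART, at chr21:33542843-33543142 on the minus strand, shares 245 bases with SON, TIAM1, at chr21:31559038-31559337 on the minus strand, shares 245 with TIAM1-AS1, and POFUT2, at chr21:45287846-45288145 on the minus strand, shares 256 with LINC00205. They are shown because the first and second pairs were lower on both sides in Ov4Carbo7 and the last was not.
GART: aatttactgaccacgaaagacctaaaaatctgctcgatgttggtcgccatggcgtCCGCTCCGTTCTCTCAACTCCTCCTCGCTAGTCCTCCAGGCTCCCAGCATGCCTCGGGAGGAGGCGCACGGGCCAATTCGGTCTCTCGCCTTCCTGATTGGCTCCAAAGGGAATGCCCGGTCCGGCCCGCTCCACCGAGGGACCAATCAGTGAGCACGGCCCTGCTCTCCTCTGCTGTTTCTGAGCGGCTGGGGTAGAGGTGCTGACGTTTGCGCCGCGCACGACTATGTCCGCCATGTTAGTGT
TIAM1: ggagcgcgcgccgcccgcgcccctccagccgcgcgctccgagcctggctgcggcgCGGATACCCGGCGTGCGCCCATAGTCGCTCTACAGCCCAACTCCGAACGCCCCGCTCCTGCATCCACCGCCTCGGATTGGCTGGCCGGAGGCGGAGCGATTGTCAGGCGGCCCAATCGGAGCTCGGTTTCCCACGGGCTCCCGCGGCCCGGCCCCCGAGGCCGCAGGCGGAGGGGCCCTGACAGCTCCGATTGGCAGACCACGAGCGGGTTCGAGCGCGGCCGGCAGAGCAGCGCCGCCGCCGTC
POFUT2: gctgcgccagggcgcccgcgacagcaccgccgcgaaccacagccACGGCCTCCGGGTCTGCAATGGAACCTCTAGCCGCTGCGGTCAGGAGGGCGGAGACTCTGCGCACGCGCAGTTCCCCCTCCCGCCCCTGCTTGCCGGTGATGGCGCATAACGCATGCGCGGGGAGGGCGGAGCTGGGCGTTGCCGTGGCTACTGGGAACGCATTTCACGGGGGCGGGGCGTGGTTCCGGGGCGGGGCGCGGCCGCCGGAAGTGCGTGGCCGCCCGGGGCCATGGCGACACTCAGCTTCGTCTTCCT

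GART, as above, differed by -0.64 in Ov4Carbo7 and SON, on the other strand, by -0.36. TIAM1 differed by -1.63 and its antisense neighbour TIAM1-AS1 by -1.06. POFUT2, which adds fucose to secreted proteins, stood at 0.06 and LINC00205, a long non-coding RNA, at 0.12, and neither was called. The 3 remaining pairs were unequal or unmoved: PIGP, of GPI anchor synthesis, stood at -0.11 beside -0.999 for TTC3, URB1, a ribosome assembly gene, at -0.39 beside -0.06 for URB1-AS1, and LINC01547 at 0.27 beside 0.04 for SLX9. Among the 6 pairs, both partners were therefore called lower in 2, 1 partner in 1 and neither in 3. The pair with 1 called partner is PIGP and TTC3, whose windows share only 50 bases and whose starts lie 451 bases apart. Whether the counting used strand is not given in the sources used here, so reads of a gene and of an overlapping antisense RNA may not be separable.

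The other 3 lines changed single chromosome 21 genes while the median of the members stayed close to that of all genes. In Ov4Carbo4 the members' median was 0.05, the same as the 0.05 over the 12037 background genes. By limma 16 members were higher and 12 lower, against a background of 20.6% and 17.5%, and 5 were lower and 0 higher by at least a doubling, against 8.04% in either direction. RUNX1, a transcription factor of blood and epithelial development, fell furthest: it read 5.15, 5.04 and 5.18 in the parental samples and 2.77, 1.99 and 2.98 in Ov4Carbo4, a difference of -2.54 (SE 0.23, adjusted p 3.44e-06, 3 of 3 samples). RUNX1 was also lower in Ov4Carbo, at 4.16, 3.94 and 3.68 (-1.20, adjusted p 0.00162), but read 4.93, 4.64 and 5.07 in Ov4Carbo7 and 4.997, 4.73 and 5.10 in Ov4Cis. The order of its levels was parental, Ov4Cis, Ov4Carbo7, Ov4Carbo and Ov4Carbo4, and the first 3 of these were not separated from one another by their spread. SIM2, a bHLH-PAS factor, fell by 2.32 in Ov4Carbo4 (SE 0.18, adjusted p 1.14e-06) from 3.44, 3.64 and 3.43 to 1.29, 0.81 and 1.45.

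Also lower in Ov4Carbo4 were the antisense RNA ITGB2-AS1 at -1.62 (adjusted p 0.000664), CBR3 at -1.29 (adjusted p 0.00166) and BACE2 at -1.05 (adjusted p 6.25e-06). CBR3, which reduces carbonyl compounds including anthracycline drugs, read 1.75, 1.96 and 1.597 in the parental samples and 0.91, 0.13 and 0.40 in Ov4Carbo4. Among called members whose samples did not overlap, the highest rises in Ov4Carbo4 were in PDE9A at 0.99 (SE 0.17, adjusted p 0.000538), AGPAT3 at 0.92 (adjusted p 0.000449) and SPATC1L at 0.89 (adjusted p 0.00148). MIR3648-2 stood higher, at 1.08, but did not pass the threshold (adjusted p 0.0641). AGPAT3 read 3.87, 3.83 and 3.82 in the parental samples and 4.76, 4.76 and 4.75 in Ov4Carbo4, with no overlap, but with the title series term its rise was 0.44 and missed the threshold. The replication-linked histone chaperone subunit CHAF1B rose by 0.60 (adjusted p 0.000656), with the title series term 0.47 and short of the threshold.

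In Ov4Carbo the members' median was -0.02, beside 0.03 in the background. By limma 15 were higher and 17 lower, against a background of 17.0% and 14.8%, and 3 were higher and 2 lower by at least a doubling, against 6.02%. These counts rested on the fit and on single samples: with only Ov4Carbo and the parental line in the fit 6 were higher and 6 lower, and without parental replicate 2 there were 6 and 12. For these fits too, no background share was computed. PKNOX1 rose by 1.25 (SE 0.14, adjusted p 4.97e-05), from 4.25, 3.93 and 3.87 in the parental samples to 5.19, 5.51 and 5.11 in Ov4Carbo. It stood at 5.17, 4.88 and 4.995 in Ov4Carbo7 and at 4.03, 4.37 and 4.07 in Ov4Carbo4, so 1 of the clones had the high level of the population and the other that of the parental line. RIMKLBP1 was higher at 1.04 (adjusted p 0.0352), a call that was not kept without Ov4Carbo replicate 1 (0.86), 2 (1.14) or 3 (1.11) or without parental replicate 2 (0.99) or 3 (0.91). SIM2 was lower at -1.48 (adjusted p 6.88e-05), and the pseudogene FBXW11P1 at -0.90 (adjusted p 0.0108) beside -0.52 for its parent.

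Ov4Cis had a median of 0.07, beside 0.02 in the background. By limma 21 members were higher and 17 lower, against a background of 17.4% and 15.6%, and 1 was higher and 5 lower by at least a doubling, against 8.18%. ADAMTS1, a secreted protease that cleaves proteoglycans, had the largest difference of any member in any line: it read 4.47, 5.35 and 4.95 in the parental samples and -1.82, -1.64 and -1.63 in Ov4Cis, a difference of -6.62 (SE 0.24, adjusted p 1.15e-09, 3 of 3 samples). In the other lines it stayed well expressed, at 4.85, 4.20 and 3.95 in Ov4Carbo, 3.90, 4.20 and 4.10 in Ov4Carbo4 and 4.37, 4.53 and 4.82 in Ov4Carbo7. ADAMTS1 was called lower in Ov4Carbo4 too, at -0.86 (adjusted p 0.0132 by limma). That call was not kept without parental replicate 2 (-0.65) or Ov4Carbo4 replicate 1 (-0.77). The size of a difference to a level below 0 depends on the offset in the authors' scale. C21orf91 fell to 0.36, 0.90 and 0.58 in Ov4Cis (-2.15, adjusted p 1.69e-07) and RIPK4 differed by -1.92 (adjusted p 0.000108). RIMKLBP1 read 2.34, 1.89 and 1.73 in the parental samples and 4.33, 2.79 and 2.73 in Ov4Cis. Its difference of 1.30 (adjusted p 0.0102) rested in large part on Ov4Cis replicate 1 and was 0.78 without it. The next largest called rises were in IL10RB, given above, and in SLC19A1, the reduced folate carrier, at 0.82 (adjusted p 0.00666). SLC19A1 read 3.06, 3.75 and 3.88 in the parental samples and 4.26, 4.49 and 4.38 in Ov4Cis. The RIMKLBP1 call missed the threshold with only the 2 lines in the fit. MUC16, KRT7, EPCAM and MSLN, given in the opening, were also low in this line. PAX8 was at a mean of 5.97 against 6.01 in the parental line, SOX17 at 7.76 against 6.91 and WT1 at -1.52 against -5.07.

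In all 4 derived lines 1 member was called higher and 5 lower, against a background of 3.63% and 2.45% of genes, with the parental samples shared by all 4 comparisons. SPATC1L, a protein of the spermatogenesis-associated family, read 1.42, 1.26 and 1.04 in the parental samples and was higher in Ov4Cis (2.15, 2.00 and 2.00), Ov4Carbo (2.22, 2.97 and 2.39), Ov4Carbo4 (2.22, 2.13 and 2.06) and Ov4Carbo7 (2.86, 2.51 and 2.55). Its differences were 0.81, 1.28, 0.89 and 1.40 in that order, and no sample of a derived line overlapped the parental ones. SIM2 was lower at -1.77, -1.48, -2.32 and -0.86 in the same order, so Ov4Carbo7 held the highest level of the 4, at 2.72, 2.52 and 2.69. RCAN1 was lower at -0.74, -0.70, -0.71 and -0.99, but without parental replicate 1 the first 3 missed the threshold, at -0.49, -0.45 and -0.46. The RCAN1 calls were also not kept in Ov4Carbo without parental replicate 2 (-0.69) or Ov4Carbo replicate 2 (-0.60), and in Ov4Carbo4 without Ov4Carbo4 replicate 3 (-0.66). CXADR, PDXK and TMEM50B completed the group, at -0.52, -0.35 and -0.51 in Ov4Carbo. With only 2 lines in the fit, CXADR and PDXK in Ov4Carbo and RCAN1 in Ov4Cis, Ov4Carbo and Ov4Carbo4 missed the threshold. The PDXK call in Ov4Carbo, at an adjusted p of 0.0492 by limma, was not kept without Ov4Carbo replicate 2 (-0.23) or 3 (-0.37) or without parental replicate 2 (-0.36) or 3 (-0.23), among others. TMEM50B missed the threshold in Ov4Carbo4 without parental replicate 3 (-0.30) or Ov4Carbo4 replicate 2 (-0.26) and in Ov4Cis without Ov4Cis replicate 1 (-0.27).

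Set beside the other chromosomes, counting all 119 chromosome 21 genes with a mean of at least 1, chromosome 21 had the second lowest median of 23 in Ov4Carbo7 against the parental line, -0.35. Chromosome 13 was lowest at -0.38 and chromosome 20 next after chromosome 21 at -0.26. Chromosomes 7 (-0.24), 14 (-0.20), 10 (-0.17) and 12 (-0.15) followed. Chromosome 21 was also the second lowest of 23 when Ov4Carbo7 was set against Ov4Carbo (-0.37), where chromosome 20 was lowest at -0.46. Against Ov4Carbo4 it was again second lowest (-0.39), after chromosome 9 at -0.40. In the other lines the place of chromosome 21 counted from the lowest was 11 in Ov4Carbo4, 9 in Ov4Carbo and 19 in Ov4Cis. The ranks are descriptions, and no test was made between chromosomes.

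Sample titles hold running numbers that fall in 2 series, which the labels do not call a batch. All Ov4Carbo7 and Ov4Carbo4 samples and replicate 1 of Ov4Carbo are in the first, and all parental and Ov4Cis samples and replicates 2 and 3 of Ov4Carbo in the second. Within the first series the members' median for Ov4Carbo7 was -0.34 against Ov4Carbo replicate 1 and -0.40 against Ov4Carbo4, beside -0.01 and -0.05 in the background genes. Within the second series it was -0.01 for Ov4Carbo replicates 2 and 3 and 0.07 for Ov4Cis against the parental line, beside 0.03 and 0.02. Ov4Carbo7 and the parental line lie in different series, and across them the median was -0.35. The term for the series, which rests on replicate 1 of Ov4Carbo against its replicates 2 and 3, ended further calls in Ov4Carbo7: BACH1 then stood at 0.21, MIR3648-2 at 0.78, RCAN1 at -0.85, RIPK4 at -1.21 and SON at -0.50. In Ov4Carbo4 it ended those of BACH1 (0.42), CXADR (-0.36) and RCAN1 (-0.57).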

How the data were processed

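RNA of 15 samples, 3 from each of 5 lines, was profiled. The deposited values are log2 RPKM that the authors had put through conditional quantile normalisation (cqn), going by the table's name, which also mentions a threshold (its rule is not given in the sources used here). The submitters' processing notes name BWA 0.7.15-r1140, HTSeq and hg19/GRCh37, without their roles. Read totals were not used here, so depth is unknown, and because samples were brought to one distribution, differences in total RNA are not measurable. GENCODE v29 was used for chromosome and gene order and matched 16499 of 16604 genes. RefSeq (GRCh38.p14) gave the promoter windows.

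A model with 1 coefficient per line was fitted to the log2 values of all 16604 genes and 15 samples by lmFit and eBayes of limma 3.58.1 under R 4.3.3 (two-sided). P-values were adjusted by Benjamini-Hochberg over all genes within each of 6 contrasts, and the threshold was an adjusted p under 0.05. The background comprises the 12037 genes with a mean of at least 1. The script was tested on simulated data. Nothing beyond the word biological says that replicates came from separate cultures. Python 3.11.15 with matplotlib 3.10.9 and pandas 2.3.3 was used for the rest.

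The members and the gene lists were chosen with earlier results of these data known. Members named by rule were those of the textbook list, the 3 largest called differences per direction and contrast whose groups do not overlap, the rows nearest the limit on the mean, and members called alike in all 4 derived lines. Other names were chosen after their values were seen. Alternatives were a variance trend, centring on the sample median, log2(RPKM + 1), a fit of the 2 groups alone, blocking on the replicate number, a title series term, no limit on the mean, inclusion of the genes left out by name, a minimum log2 difference of 1, leaving out each sample, and, added after seeing the data, protein-coding members only.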

Additional observations from a re-analysis of the deposited data

Results flagged for a closer look

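AGPAT3, an acyltransferase of phospholipid synthesis, was set apart by a difference between lines. Against the parental line it stood at -0.40 in Ov4Carbo7 but at 0.75 in Ov4Carbo, 0.92 in Ov4Carbo4 and 0.67 in Ov4Cis. Its value in Ov4Carbo7 thus differed by -1.15 from that in Ov4Carbo, by -1.32 from that in Ov4Carbo4 and by -1.08 from that in Ov4Cis (SE 0.15). All 3 Ov4Carbo7 samples lay below every sample of the other lines. The Ov4Carbo7 call was lost under many left-out samples, as given with the results.

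CBR3, a carbonyl reductase, stood on opposite sides of the parental level in the 2 clones, at 0.70 in Ov4Carbo7 and -1.29 in Ov4Carbo4, a difference of 1.99 (SE 0.26). All 3 Ov4Carbo7 samples lay above all 3 of Ov4Carbo4. With the title series term CBR3 in Ov4Carbo7 stood at -0.11, so the opposite directions were not kept. Both genes were picked because their calls were opposite, on a chromosome chosen by its shift in Ov4Carbo7, so these differences are descriptions with no test.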

How the results depend on the processing

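The members' median for Ov4Carbo7 was negative against all 3 reference lines under every alternative tried. On log2(RPKM + 1) it was -0.33 against Ov4Carbo and -0.35 against Ov4Carbo4. With no limit on the mean (153 rows) the medians were -0.24 (Ov4Carbo7), 0.0816 (Ov4Carbo4), 0.0172 (Ov4Carbo) and 0.10 (Ov4Cis) against the parental line, -0.30 for Ov4Carbo7 against Ov4Carbo and -0.36 against Ov4Carbo4, and 48, 53 and 63 members were called in Ov4Carbo4, Ov4Carbo and Ov4Cis. With the genes left out by name, the Ov4Carbo median was 0.0156. Over protein-coding members, an alternative chosen after seeing the data, it was 0.0265 for Ov4Cis, and for Ov4Carbo7 -0.41 against Ov4Carbo and -0.48 against Ov4Carbo4. With only the groups compared, 12 members were called in Ov4Carbo and 35 in Ov4Carbo7 against Ov4Carbo. With the title series term 31 were called in Ov4Carbo7 against the parental line and 32 against Ov4Carbo, and CBR3 in Ov4Carbo7 turned to -0.11. With a log2 difference of at least 1, the called members numbered 9, 5, 5 and 6 in Ov4Carbo7, Ov4Carbo4, Ov4Carbo and Ov4Cis against the parental line, and 12 and 20 in Ov4Carbo7 against Ov4Carbo and Ov4Carbo4. Shares over all genes were not computed under the other fits, nor without the limit on the mean, so those counts have no background beside them. Fewer genes, fewer samples or the stricter limit are built into several of these alternatives, and otherwise the cause was not tested.

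Leaving out 1 sample at a time gave medians of -0.37 to -0.28 for Ov4Carbo7, 0.0145 to 0.0597 for Ov4Carbo4, -0.0503 to 0.0186 for Ov4Carbo and 0.0372 to 0.0835 for Ov4Cis, -0.42 to -0.29 for Ov4Carbo7 against Ov4Carbo and -0.42 to -0.40 against Ov4Carbo4. Counts of called members ran from 49 to 64, 22 to 31, 18 to 37, 32 to 43, 46 to 65 and 61 to 74 in the order Ov4Carbo7, Ov4Carbo4, Ov4Carbo and Ov4Cis against the parental line, then Ov4Carbo7 against Ov4Carbo and Ov4Carbo4. Of 78 calls of named members against the parental line, 32 were lost under some alternative: 20 when some sample was left out, 15 with only the 2 groups in the fit, and 17 with the title series term, which reversed CBR3 besides.

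Deviations of same-numbered samples correlated between -0.50 and 0.54, over 0.1 in 12 of 30 pairs. The replicate number was not used as a block in the main fit because nothing in the labels says it marks a shared batch. With the replicate block the median for Ov4Carbo7 stayed -0.35 and 57 members were called in place of 61. The block lost 3 of the 78 calls, namely CHAF1B (0.31) and PDXK (-0.35) in Ov4Carbo and AGPAT3 (-0.40) in Ov4Carbo7. Depth is unknown, so precision can be read only from how the 3 replicates of a line vary.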
